A study of Mus musculus with 9 samples.

Results

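Hydroxysteroid dehydrogenases are enzymes that switch steroid hormones and related lipids between an alcohol and a ketone form, and so set how much active hormone a tissue holds. The genes described here were chosen by name from 3 classes: Hsd3b1, Hsd3b2, Hsd3b3 and Hsd3b5 of the 3β class, Hsd11b1 and Hsd11b2 of the 11β class, and Hsd17b2 and Hsd17b11 of the 17β class. Of these 8 genes, 7 had probes under a single gene symbol, on 8 of 23040 spots, and they stand among 15096 genes with a single symbol. Hsd3b3 had 2 probes, which were averaged, and Hsd3b5 was not analysed here. The list was drawn up with strain ratios of the same arrays in view, so the members' ratios are given as a description with no test.

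Each array compared RNA of 1 tissue from SJL/J, pooled over 5 male mice aged 8 weeks and labelled with Alexa Fluor 647, with the same tissue from 5 C57BL/6J males of that age, labelled with Alexa Fluor 555. Both are inbred laboratory strains. There were 3 arrays each for whole liver, kidney and brain, repeats of the same 2 pools with the dyes never exchanged, so every SD (n = 3 arrays) and p-value covers the spread between arrays and not between mice, and a dye effect of a probe is part of its ratio. Values are log2 ratios, positive where the SJL/J pool was higher. That direction is likely rather than stated, and were it turned, every sign, rank and share of a strain's level below would turn with it. Nnt, of which C57BL/6J lacks some exons, had ratios from 0.15 to 1.06 on the 9 arrays. A log ratio holds no level, so neither the abundance of a gene nor the tissue label could be checked against markers, and in whole tissue fewer cells of a type and less RNA per cell cannot be told apart. For kidney and liver arrays the tissue given under channel 1 is brain, and the titles were followed.

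The array labelled brain replicate 3 stood apart. Over all spots it correlated with the other brain arrays at r = 0.52 and 0.57, whereas the other brain pair had 0.76 and the liver and kidney pairs 0.77 to 0.79. Its mean r with the kidney arrays was 0.60, against 0.52 and 0.45 for brain arrays 1 and 2. Whether its tissue label is right was not tested, and it was kept in brain means and calls unless named as left out. The members' brain values are therefore given per array, and their brain means with and without that array where it turns the sign. Named probes at spot numbers that are multiples of 8 had lower ratios than the other named probes (medians of -0.22 against 0.00 in liver, -0.34 against 0.059 in kidney and -0.16 against 0.025 in brain). The probes of 2 members, Hsd11b1 and Hsd17b11, lay at such numbers.

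In steroid-making cells the 3β enzymes oxidise pregnenolone-type steroids to progesterone-type ones, a step every active steroid hormone passes through. Mice carry a family of such genes side by side on chromosome 3, in which Hsd3b1 is known as the form of adrenal gland and gonads and Hsd3b2 and Hsd3b3 as forms of kidney and liver. The 11β enzymes act on glucocorticoids: in liver Hsd11b1 regenerates active corticosterone, using NADPH that H6pd supplies, while in the distal nephron Hsd11b2 inactivates it and so keeps it from the mineralocorticoid receptor. Hsd17b2 oxidises estradiol and testosterone to weaker hormones, and Hsd17b11 is a short-chain dehydrogenase of lipid droplets that accepts androgen metabolites.

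The 250 bases before the start of the 3 measured Hsd3b genes, which are neighbours, are shown from RefSeq. They come from 1 reference genome, so they hold no difference between the strains, and a link to the ratios was not tested. Hsd3b3 had 2 starts in the source, of which the first was used. Capitals mark matches on either strand to 5 searched motifs: TATAAA (the TATA box), TTCNNNGAA (the STAT site), AGGTCA (the nuclear receptor half-site), AGAACA (the steroid receptor half-site) and CCAAT (the CCAAT box). No match overlapped another.
Hsd3b1 (GRCm38.p6, minus strand, chr3:98859795-98860044): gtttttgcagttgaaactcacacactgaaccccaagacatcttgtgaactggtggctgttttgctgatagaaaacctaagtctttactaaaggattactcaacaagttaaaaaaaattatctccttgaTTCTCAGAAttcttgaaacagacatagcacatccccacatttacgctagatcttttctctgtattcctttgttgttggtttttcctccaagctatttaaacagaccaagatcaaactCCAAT
Hsd3b2 (GRCm38.p6, minus strand, chr3:98724544-98724793): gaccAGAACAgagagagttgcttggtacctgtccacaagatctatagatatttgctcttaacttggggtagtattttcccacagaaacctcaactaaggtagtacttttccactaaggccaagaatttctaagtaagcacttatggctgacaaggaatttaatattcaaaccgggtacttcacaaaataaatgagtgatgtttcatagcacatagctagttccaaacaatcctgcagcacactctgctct
Hsd3b3 (GRCm38.p6, minus strand, chr3:98763129-98763378): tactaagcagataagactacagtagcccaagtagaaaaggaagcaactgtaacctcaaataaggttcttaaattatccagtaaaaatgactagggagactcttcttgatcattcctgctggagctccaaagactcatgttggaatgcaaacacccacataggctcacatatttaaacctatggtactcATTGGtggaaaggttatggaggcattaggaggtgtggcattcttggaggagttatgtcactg
Hsd3b1 held TTCTCAGAA, a match to the STAT letters, from -122 to -114 and CCAAT from -5 to -1, counted back from the start. Hsd3b2 held AGAACA from -246 to -241, and Hsd3b3 held ATTGG, the reverse complement of CCAAT, from -62 to -58. Of 27025 promoters of the same length, 1 per gene, 7.2% held the STAT letters, 16.2% AGAACA, 34.5% CCAAT, 13.0% TATAAA and 13.8% AGGTCA. In global alignments Hsd3b1 shared 49.3% of columns with Hsd3b2 and 50.9% with Hsd3b3, and Hsd3b2 shared 51.4% with Hsd3b3. Alignments of these 3 with the promoters of Hsd11b1 and Hsd17b11, on other chromosomes, gave 47.6% to 50.0%. Hsd11b1 and Hsd17b11 shared 50.8% with each other, which lies within the range of the Hsd3b pairs. Sequences were found for 5 of the 7 members, with no entry for Hsd11b2 and Hsd17b2.

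Hsd3b1 had the lowest liver ratio among the members. It had -2.76, -2.59 and -2.54 on liver arrays 1 to 3, -0.47, -0.34 and -0.70 in kidney, and -0.07, -0.37 and -0.23 in brain. All 9 arrays lay below 0, and no liver array came within 1.83 of a kidney array. The liver mean was -2.63 ± 0.11 (SD, n = 3), which is 0.162 of the C57BL/6J level and ranked 11 from the lowest of the 15096 genes. With the direction turned the SJL/J level would be 6.18 times that of C57BL/6J, at rank 11 from the highest. The means in kidney and brain were -0.50 ± 0.18 and -0.22 ± 0.15. The line of 24 consecutive spots that holds its probe had medians of -0.21 to 0.04 on the liver arrays. The ratios of the spots directly beside it were not looked at singly.

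Hsd3b2, a kidney and liver form, followed at some distance. Its liver arrays gave -1.22, -0.47 and -1.33, its kidney arrays -0.21, -0.17 and -0.45, and its brain arrays 0.54, -0.09 and -0.14. Liver and kidney lay below 0 on every array, and in brain array 1 alone lay above 0. The means were -1.01 ± 0.47 in liver (0.498 of the C57BL/6J level), -0.27 ± 0.15 in kidney and 0.10 ± 0.38 in brain (SD, n = 3 each). The highest liver array and the lowest kidney array were only 0.02 apart. Without brain array 1 the brain mean was -0.11.

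Hsd3b3, the third form, was not uniform in liver. Averaged over its 2 probes it had -0.18, -0.82 and 0.09 in liver, 0.29, 0.40 and 0.52 in kidney, and 0.11, -0.01 and 0.46 in brain. Kidney lay above 0 on all 3 arrays and above all liver arrays. The liver spread came from 1 probe, which gave -0.28, -1.43 and 0.21 on the 3 liver arrays, whereas the other gave -0.08, -0.21 and -0.03. In kidney the probes had means of 0.38 ± 0.11 and 0.43 ± 0.29 (SD, n = 3), but the line of 24 spots that held the first had kidney medians of 0.43 to 0.47. After subtraction of the median of each line of 24 spots and of each column, the kidney mean of Hsd3b3 was 0.11 in place of 0.40. The Hsd3b genes are close relatives, probe sequences were not used here, and whether a probe of one also bound RNA of another, such as Hsd3b5, was not tested.

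**Figure D1:**
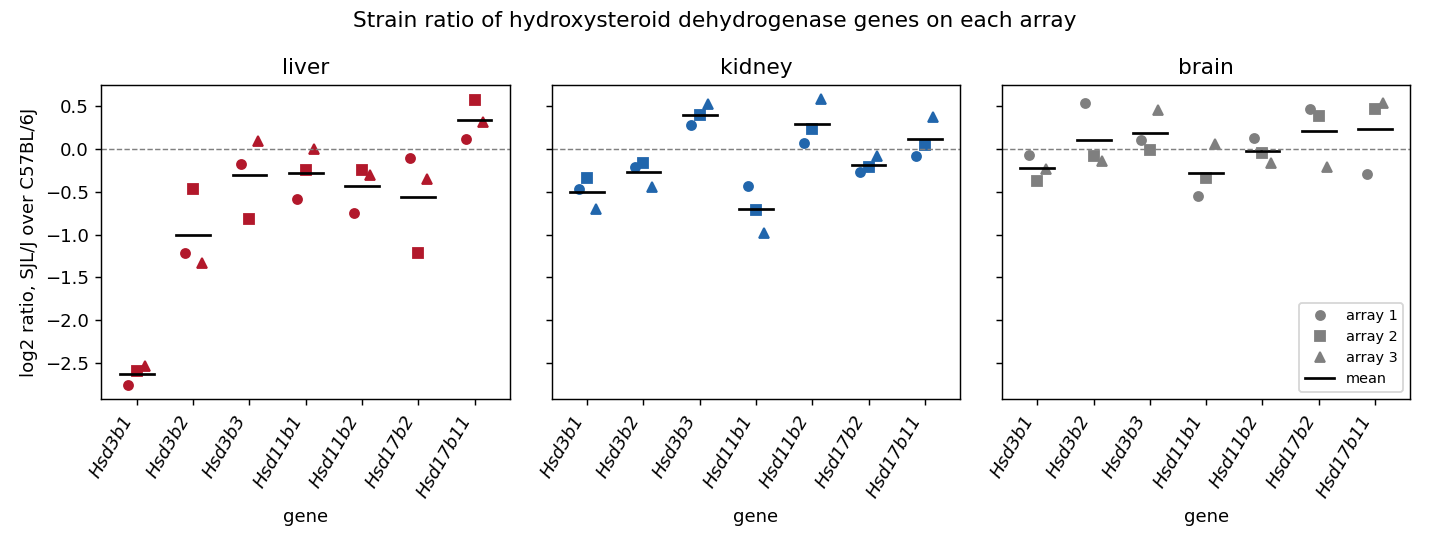
Log2 strain ratio (SJL/J over C57BL/6J, vertical axis) of the 7 measured members on each of 3 arrays (points) with their mean (bar), in liver, kidney and brain. Hsd3b1 sits between -2.76 and -2.54 in liver, below every other point in the plot.

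Hsd11b1, which regenerates corticosterone, was lowest in kidney. Its kidney arrays gave -0.43, -0.71 and -0.98, its liver arrays -0.59, -0.24 and 0.0025, and its brain arrays -0.55, -0.34 and 0.06. Only in kidney did every array lie below 0, and the kidney range overlapped both the liver and the brain range. Its mean was -0.71 ± 0.27 in kidney (0.613 of the C57BL/6J level), -0.28 ± 0.30 in liver and -0.28 ± 0.31 in brain (SD, n = 3 each). Its spot number is a multiple of 8, and after that subtraction its means were -0.52 in kidney, 0.04 in liver and -0.03 in brain. Without brain replicate 3 its brain mean was -0.45.

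Hsd11b2, which inactivates corticosterone, differed in sign between liver and kidney. It had -0.75, -0.25 and -0.30 on the liver arrays, 0.07, 0.23 and 0.58 on the kidney arrays, and 0.12, -0.04 and -0.16 on the brain arrays. Every liver array lay below 0 and every kidney array above it, while brain lay on both sides. The means were -0.43 ± 0.28 in liver, 0.29 ± 0.26 in kidney and -0.03 ± 0.14 in brain (SD, n = 3 each). Without brain replicate 3 the brain mean was 0.04, the kidney mean was 0.15 without kidney array 3, and the liver mean was -0.28 without liver array 1 and -0.23 after line and column medians were subtracted. Hsd11b1 and Hsd11b2 thus had ratios of opposite sign in kidney, on all 3 arrays for each gene.

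Of the 17β genes, Hsd17b2, which oxidises estradiol and testosterone, had -0.11, -1.21 and -0.36 in liver, -0.27, -0.22 and -0.08 in kidney, and 0.46, 0.38 and -0.21 in brain. Liver and kidney lay below 0 on all arrays, and brain replicate 3 went against the other 2 brain arrays. The means were -0.56 ± 0.58 in liver, -0.19 ± 0.09 in kidney and 0.21 ± 0.37 in brain (SD, n = 3 each). Without liver array 2 the liver mean was -0.23. Without brain replicate 3 the brain mean was 0.42.

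Hsd17b11, the lipid droplet enzyme, was the only member above 0 on every liver array. It had 0.12, 0.57 and 0.32 in liver, -0.08, 0.05 and 0.38 in kidney, and -0.29, 0.46 and 0.54 in brain. The ranges of the 3 tissues overlapped. Its means were 0.33 ± 0.23 in liver, 0.12 ± 0.24 in kidney and 0.24 ± 0.46 in brain (SD, n = 3 each). Its spot number is a multiple of 8 too, and after line and column medians were subtracted its means were 0.73 in liver, 0.47 in kidney and 0.50 in brain. Without kidney array 3 its kidney mean was -0.015.

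Ordered by liver mean, the members ran Hsd3b1, Hsd3b2, Hsd17b2, Hsd11b2, Hsd3b3, Hsd11b1 and Hsd17b11. Hsd3b1 did not overlap its neighbour Hsd3b2 in the range of its arrays, and Hsd17b11 did not overlap Hsd11b1, whereas all other neighbours in that order overlapped. In kidney the order was Hsd11b1, Hsd3b1, Hsd3b2, Hsd17b2, Hsd17b11, Hsd11b2 and Hsd3b3, with the only break between Hsd17b2 and Hsd17b11. In brain the means spanned -0.28 to 0.24 and every neighbour in the order overlapped the next.

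The members' median was -0.43 in liver, -0.19 in kidney and 0.10 in brain, against -0.02, 0.03 and 0.01 for all genes. All 3 liver arrays lay below 0 for 4 of the 7 members (32.5% of all genes) and above 0 for 1 (27.8%). In kidney the counts were 4 below (32.0%) and 2 above (35.3%), and in brain 1 lay below (22.4%). The other 6 had brain arrays on both sides, for which no share of all genes is given here, so that count is not a trait of the members. In the limma fit of the whole table at an adjusted p under 0.05, 3 members were among the lower calls in liver, namely Hsd3b1, Hsd3b2 and Hsd11b2 (14.1% of all genes), and 2 in kidney, Hsd3b1 and Hsd11b1 (13.9%). No member was among the lower calls in brain (9.70%), and 0 members were called higher in any tissue (9.98% in liver, 13.4% in kidney and 7.72% in brain). All liver arrays lay below all kidney arrays for 4 members, Hsd3b1, Hsd3b2, Hsd3b3 and Hsd11b2 (25.3% of all genes). All liver arrays lay below all brain arrays for 3, Hsd3b1, Hsd3b2 and Hsd11b2 (16.2%). The kidney arrays lay below the brain arrays for Hsd3b2 alone (15.1%). For scale, the ratio differed at an adjusted p under 0.05 for 18.5% of all genes between liver and kidney, 9.78% between liver and brain and 4.82% between kidney and brain. Since the same ratios were in view when the members were listed, these counts describe the choice.

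**Figure D2:**
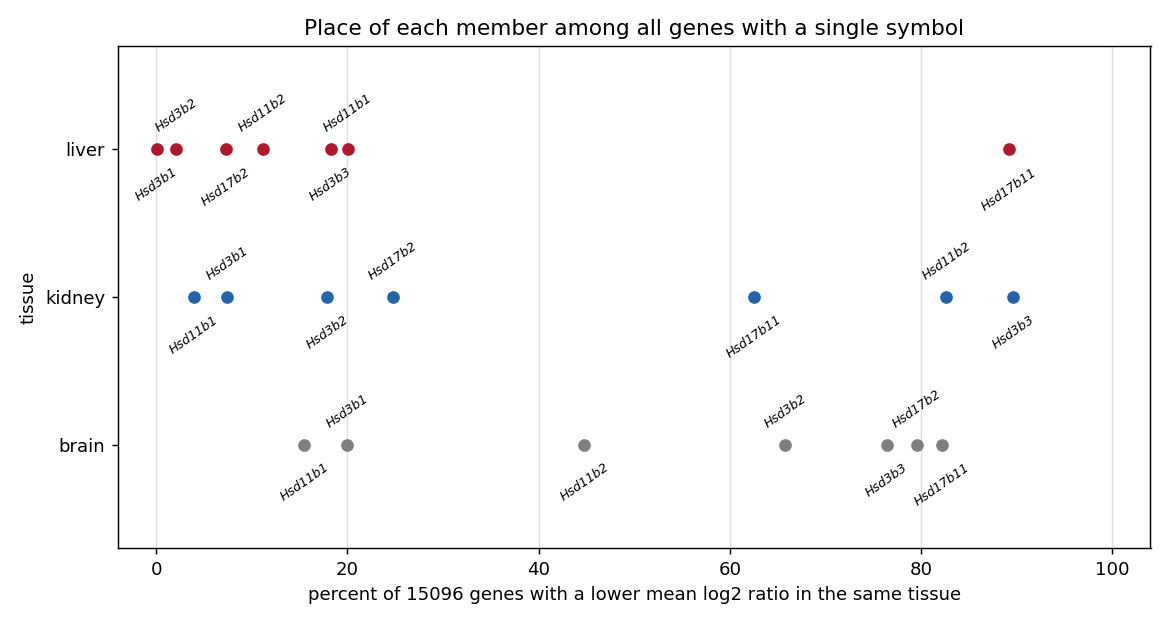
Place of each measured member among 15096 genes, as the percent of genes with a lower mean log2 ratio in the same tissue (horizontal axis), with tissues down the page. In liver 6 members lie in the lowest 20.1% and Hsd17b11 lies above 89.1% of the genes, whereas in brain none lies below 15.5%.

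Among all genes with a single symbol, those nearest to Hsd3b1 over the 9 arrays were Krtcap3 (Euclidean distance 0.77), Hsd3b7 (1.07), an enzyme of bile acid synthesis, and 2810030D12Rik (1.10). Krtcap3 had mean ratios of -2.91 in liver, -0.55 in kidney and -0.29 in brain. Nearest to Hsd3b2 were Gpd1, cytosolic glycerol phosphate dehydrogenase (0.73), Smyd1, a muscle methyltransferase (0.79), and Rhox13, a homeobox gene (0.81). Gpd1 had mean ratios of -1.16 in liver, -0.20 in kidney and -0.045 in brain. Nearest to Hsd11b1 were Tdrkh (0.59), Fndc4 (0.60) and 4930590G02Rik (0.60). Fndc4 had mean ratios of -0.30 in liver, -0.65 in kidney and -0.24 in brain.

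Of 27 other hydroxysteroid dehydrogenase symbols, 18 were measured. In liver 11 fell (14.1% of all genes), 1 rose (9.98%) and 6 did not pass, with a median of -0.67 against -0.02 for all genes. Hsd3b7 had -2.05, -2.26 and -2.38 on the liver arrays (mean -2.23 ± 0.17, SD, n = 3, limma adjusted p = 3.22e-07). Akr1c12 and Akr1c13, aldo-keto reductases of one gene cluster, fell, at -1.37 ± 0.41 and -1.10 ± 0.49 (adjusted p = 0.000348 and 0.00114), and so did Hsd17b4, the multifunctional enzyme of peroxisomal beta-oxidation, at -1.09 ± 0.43 (adjusted p = 0.000475). Hsd17b12, of fatty acid elongation, and Hsd17b10, of mitochondria, fell as well, at -0.71 ± 0.29 and -0.70 ± 0.17, whereas Hsd17b7 (-0.22 ± 0.17) and Hsd17b14 (0.28 ± 0.16) did not pass. Hsdl1, a dehydrogenase-like protein, was the 1 that rose, at 0.45 ± 0.09 (adjusted p = 0.0130), with no call without liver array 1 or 2 (0.45 and 0.40).

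In kidney 4 of these 18 genes rose (13.4% of all genes), 2 fell (13.9%) and 12 did not pass, with a median of 0.13. Hsd17b7, which also serves cholesterol synthesis, rose by 0.60 ± 0.40 (SD, n = 3, limma adjusted p = 0.00912) and Hsd17b3, the testosterone-making form of testis, by 0.34 ± 0.22 (adjusted p = 0.0321). Akr1c21 fell by 0.92 ± 0.59 (adjusted p = 0.00564). Akr1c18, which inactivates progesterone, had -0.47 ± 0.09 (adjusted p = 0.0243) at a multiple of 8, but 0.02 after line and column medians were subtracted. After that subtraction 3 of the 18 passed in kidney, and 2 passed with any 1 kidney array left out. Hsd17b7 lost its call without kidney array 3 (0.38), Hsd17b3 without array 1 or 2 (0.22 and 0.38), and Akr1c18 with any 1 kidney array left out (-0.52 to -0.43). Hsd17b3 also lost its kidney call after line and column medians were subtracted (0.28). In brain 1 rose (7.72% of all genes), Hsdl2 at 0.38 ± 0.11, 2 fell (9.70%) and 15 did not pass, with a median of -0.09. The 2 were Akr1c18 at -0.75 ± 0.32 and H2-Ke6, now called Hsd17b8, which had -0.80, -0.96 and 0.03 on the brain arrays. H2-Ke6 lost its call without brain replicate 1 or 2 (-0.47 and -0.38). Hsdl2 lost its call with any 1 brain array left out (0.32 to 0.41).

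**Figure D3:**
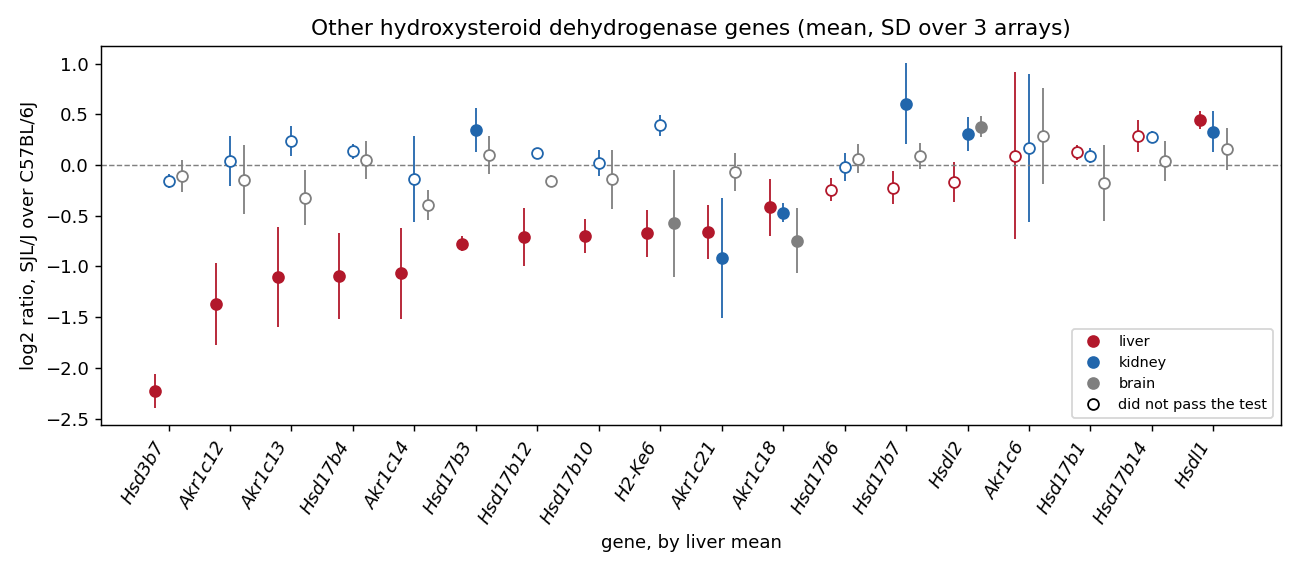
Mean log2 strain ratio (SJL/J over C57BL/6J) with SD over 3 arrays for 18 other hydroxysteroid dehydrogenase genes in liver, kidney and brain, ordered by liver mean. Filled points passed the limma test, and the 12 filled liver points run from -2.23 for Hsd3b7 to 0.45 for Hsdl1.

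The Hsd3b genes lie together on chromosome 3, and the liver means of their measured neighbours in gene order ran from -0.61 to 0.34. Of the 10 nearest measured genes, 5 on either side, 3 fell and 0 rose in liver, 2 rose and 0 fell in kidney, and 1 fell and 0 rose in brain. Over all genes 14.1% fell and 9.98% rose in liver, 13.9% and 13.4% in kidney, and 9.70% and 7.72% in brain. Hao2, a peroxisomal hydroxy acid oxidase and the measured gene next to Hsd3b1, had -0.59, -0.68 and -0.48 in liver and 1.48, 1.44 and 1.34 in kidney. Its means were -0.58 ± 0.10 (SD, n = 3, limma adjusted p = 0.00282) and 1.42 ± 0.07 (adjusted p = 1.71e-05). In kidney it thus lay above 0 where Hsd3b1 lay below. Gdap2 and Reg4 fell in liver, at -0.61 ± 0.11 (-0.34 after line and column medians were subtracted) and -0.47 ± 0.30, the second losing its call with any 1 liver array left out (-0.57 to -0.30). Adam30 rose in kidney, at 0.44 ± 0.17, with no call without kidney array 1 or 3 (0.38 and 0.39), and Notch2 fell in brain, at -0.30 ± 0.12 (adjusted p = 0.0328), with -0.24 and no call without brain replicate 3, nor without brain replicate 2 (-0.30) or kidney array 1. Phgdh, of serine synthesis and next to the cluster on the other side, had -0.23 ± 0.08 in liver and did not pass, and neither did Sec22b, Wars2, Tbx15 and Spag17 in any tissue.

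**Figure D4:**
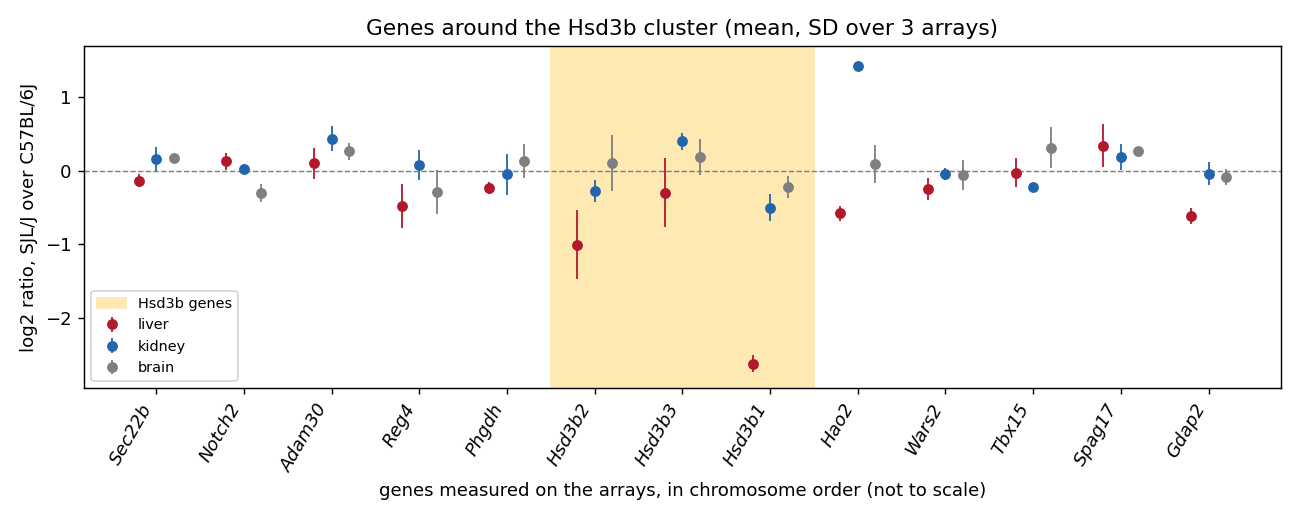
Mean log2 strain ratio (SJL/J over C57BL/6J) with SD over 3 arrays of the 3 measured Hsd3b genes (shaded) and the 5 nearest measured genes on either side, in chromosome order and not to scale. Hsd3b1 in liver (-2.63) and Hao2 in kidney (1.42) stand farthest from 0.

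Of 15 measured genes that make or reduce steroids beside these enzymes, 3 fell, 0 rose and 12 did not pass in liver, with a median of -0.10. Beside these counts and those of the adrenal markers below stand the shares over all genes. They were 14.1% lower and 9.98% higher in liver, 13.9% and 13.4% in kidney, and 9.70% and 7.72% in brain. Star, which brings cholesterol into mitochondria, had -1.45 ± 0.17 in liver (SD, n = 3, limma adjusted p = 3.69e-05) at a multiple of 8 and -0.79 after line and column medians were subtracted, and Cyp17a1, of androgen synthesis, -0.55 ± 0.16 (adjusted p = 0.00309). Tspo, an outer mitochondrial membrane protein, had -0.51 ± 0.31, and it and Cyp17a1 did not pass in liver after that subtraction (-0.09 and -0.25), nor did Tspo without liver array 1 or 2 (-0.41 and -0.43). In kidney 2 rose, Stard4, a sterol carrier, at 0.66 ± 0.16 and Cyp17a1 at 0.35 ± 0.19, and 2 fell, Cyp21a1, a steroid hydroxylase of adrenal cortex, at -0.44 ± 0.04 and Stard5 at -0.30 ± 0.04. Stard4 lost its kidney call without array 1 or 2 (0.60 and 0.65), Cyp17a1 without array 1 or 3 (0.32 and 0.26), Stard5 with any 1 array left out (-0.32 to -0.28), and Cyp21a1 after line and column medians were subtracted (-0.11). In brain Stard4 rose (0.59 ± 0.25) and Cyp21a1 (-0.55 ± 0.12) and Star (-0.44 ± 0.16) fell. Star lost the brain call with any 1 brain array left out (-0.52 to -0.37) and after line and column medians were subtracted (-0.27). Stard4 lost its brain call without brain replicate 1 or 2 (0.52 and 0.51). Of 7 measured markers of adrenal cortex, the tissue known for Hsd3b1, 0 rose in any tissue, and 1 fell in liver (Star), 1 in kidney (Cyp21a1) and 2 in brain (Star and Cyp21a1). Their medians were -0.02 in liver, -0.24 in kidney and -0.21 in brain, and their part in the ratios of Hsd3b1 was not tested.

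Genes around the 11β enzymes mostly did not pass. Of 16 measured corticosteroid receptors, transporters and targets, 3 fell and 0 rose in liver, 2 rose and 0 fell in kidney, and 1 rose and 0 fell in brain. The shares over all genes were 14.1% lower and 9.98% higher in liver, 13.9% and 13.4% in kidney, and 9.70% and 7.72% in brain. In liver Errfi1, an inhibitor of EGF receptor signalling, had -0.87 ± 0.16 (SD, n = 3, limma adjusted p = 0.000501), Tsc22d3, the glucocorticoid-induced leucine zipper, -0.62 ± 0.10, and Scnn1a, a subunit of the sodium channel, -0.34 ± 0.25. The liver call of Scnn1a was lost in 10 of the alternatives, and that of Tsc22d3 with any 1 liver array left out (-0.67 to -0.57). In kidney Fkbp5, a glucocorticoid-induced co-chaperone, rose by 0.71 ± 0.09 (adjusted p = 0.000265) and Scnn1a by 0.63 ± 0.14 (adjusted p = 0.00217). Per1, a clock gene, rose in brain by 0.77 ± 0.35. Nr3c1, the glucocorticoid receptor, had means of 0.16 in liver, -0.07 in kidney and 0.12 in brain and did not pass, and H6pd was not analysed here.

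Some markers of the cell types that hold these enzymes passed the test as well. Among all genes 14.1% fell and 9.98% rose in liver, 13.9% and 13.4% in kidney, and 9.70% and 7.72% in brain. Of 11 measured markers of distal nephron and collecting duct, where Hsd11b2 acts, 3 rose, 1 fell and 7 did not pass in kidney, with means from -0.44 to 1.12 and a median of 0.15. Aqp2, the vasopressin-regulated water channel, rose by 1.12 ± 0.39 (SD, n = 3, limma adjusted p = 0.000351). Of the same markers 2 rose and 0 fell in liver and 1 rose and 0 fell in brain, with Aqp3, another water channel of the collecting duct, at 0.54 ± 0.10 in liver (0.32 after line and column medians were subtracted) and 1.02 ± 0.18 in brain. Of 11 markers of proximal tubule, 2 rose and 0 fell in kidney, led by Slc22a8, an organic anion transporter (0.70 ± 0.37), 1 rose and 0 fell in liver (Aqp1, 0.66 ± 0.17), and 0 rose and 1 fell in brain (Gatm, -1.01 ± 0.55). Of 10 hepatocyte markers 6 rose, 1 fell and 3 did not pass in liver, with a median of 0.60. Apoa1, among those that rose, had 1.94, 1.47 and -0.39 on the liver arrays. The 1 that fell was Tdo2, at -1.69 ± 0.33. Among these markers 0 rose and 1 fell in kidney (Serpina1a, -1.10 ± 0.56), and by limma 0 passed in brain, where 0 had an unadjusted p under 0.05. Of 8 macrophage markers 2 rose and 0 fell in liver (Cd163 the highest, 0.46 ± 0.24), 2 rose and 2 fell in kidney (Adgre1 the highest, 0.92 ± 0.28), and 1 rose and 0 fell in brain (Cd14, 0.34 ± 0.09). Slc22a8 lost its call without kidney array 1 or 3 (0.54 and 0.66), Cd163 without liver array 2 or 3 (0.42 and 0.36) and Cd14 without brain replicate 1 or 2 (0.30 and 0.33). The part of cell makeup in the members' ratios was not tested.

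Several steroid-metabolising genes of mouse liver, Hsd3b5 among them, are known to be expressed by sex, so genes with that property were described too, in these males. The shares of all genes that fell and rose were 14.1% and 9.98% in liver, 13.9% and 13.4% in kidney, and 9.70% and 7.72% in brain. Of 11 measured male-biased genes 3 rose, 5 fell and 3 did not pass in liver, with a median of -0.27. Selenbp2, which binds selenium, fell, at -2.62 ± 0.65 (SD, n = 3, limma adjusted p = 1.82e-05), as did Elovl3, a fatty acid elongase, at -0.82 ± 0.34, whereas Mup3, a major urinary protein, rose by 1.42 ± 0.26 (adjusted p = 0.000153), a mean of 2 probes of which the one with the largest ratio over the tissues had 0.90. Gstp1, a glutathione transferase, had -2.52, -0.07 and -1.50, and its call was lost without liver array 1 or 3 (-0.79 and -1.30). In kidney 3 of the male-biased genes rose and 0 fell, led by Cyp4a12a at 0.83 ± 0.58, and all 3 lost the call without kidney array 3 (Cyp4a12a 0.53, Mup3 0.46, Mup5 0.28), as did Cyp4a12a and Mup3 without array 2 (0.84 and 0.55). In brain Moxd1 rose (0.37 ± 0.01), though not without brain replicate 2 (0.38), and Elovl3 fell (-0.62 ± 0.15), though not without brain replicate 1 (-0.54). Of 11 female-biased genes 2 rose, 3 fell and 6 did not pass in liver, with a median of -0.21. Cyp3a16 and Cyp3a44, cytochromes P450, fell, at -1.81 ± 0.24 and -1.75 ± 0.66, and so did Abcd2, a peroxisomal transporter, at -0.58 ± 0.04, whereas Cyp2a4, a testosterone hydroxylase, rose by 0.64 ± 0.08. In kidney 0 rose and 2 fell, Cyp39a1 (-0.62 ± 0.16, at a multiple of 8) and the sulfotransferase Sult3a1 (-0.44 ± 0.16), and in brain 1 fell, Cyp39a1 (-0.44 ± 0.04). The calls of Sult3a1 in kidney and Cyp39a1 in brain were lost with any 1 array of the tissue left out (-0.52 to -0.36 and -0.46 to -0.42). Both were also lost after line and column medians were subtracted (-0.34 and -0.30), as were those of Abcd2 in liver and Cyp39a1 in kidney (-0.11 and -0.19). Both sex-dependent lists thus held liver calls in each direction.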

How the data were processed

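Strain ratios were measured on 9 two-colour arrays, 3 each for liver, kidney and brain, with 20 ug of pooled RNA per labelling. The authors deposited 1 log2 ratio per spot and array (23040 spots, 0 missing), made with R 2.0.0 and limma per the submitters' processing notes. The base was taken from limma's convention and is not stated. Sorted, the 9 columns held the same values (tolerance 1e-09), as between-array quantile scaling leaves them. How the background was corrected is not given in the sources used here. No dim spot was filtered, since intensities were not used, and the number of arrays limits the precision.

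Of the probes, 16874 by the platform's annotation had a single symbol (15096 genes), 134 several and 6032 none. Probes of a gene were averaged and every other probe kept as its own row (21262 rows). limma 3.58.1 in R 4.3.3 (lmFit, eBayes) was fitted with 1 coefficient per tissue, two-sided, with Benjamini-Hochberg adjustment over all rows and a threshold of 0.05. The fit was tested on simulated data. The reference gene table and promoters are RefSeq's (GRCm38.p6), aligned with Biopython 1.88.

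The members, the 10 gene lists and the tests were chosen with earlier results of these data known. Named were every member, up to 4 genes per pathway list and tissue (1 per marker list) with the largest ratios among those that passed with 1 sign on all 3 arrays, the 5 measured genes on either side of the Hsd3b genes, the 3 genes nearest to each of the 3 members with the largest ratios, and Nnt. Hsd17b10, Hsd17b12, Hsd17b14, Hsdl1, H2-Ke6, Nr3c1 and Apoa1 fall outside this rule and were named after their values were seen. Alternatives subtracted medians of lines of 24 spots and of columns, left out probes at multiples of 8 or 1 array, used the arrays of a tissue alone, a replicate block, 1 probe per gene, or genes with a single symbol.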

Additional observations from a re-analysis of the deposited data

Results flagged for a closer look

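The strain ratio of some genes differed between tissues, by a limma contrast (adjusted p under 0.05) for 37 of the 53 list genes and neighbours considered, and untested for 1 member. Most of the 53 were named because they passed with a large ratio in some tissue, so this share follows from the choice. Over all genes each contrast alone passed for 18.5% (liver minus kidney), 9.78% (liver minus brain) and 4.82% (kidney minus brain). The share of all genes that passed at least 1 was not computed, so these are not the same measure. Hsd11b2 had every liver array below 0 and every kidney array above 0 (liver minus kidney -0.73), a difference that was not tested. Every liver array lay below 0 for 32.5% of all genes, and every kidney array above 0 for 35.3%. The share of genes that met these conditions together was not computed. Whether Hsd11b2 stood out by this pattern is therefore not known.

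For each gene below only the contrast with the largest absolute difference among those that passed is given. A gene may thus have differed between other tissues too. Of other hydroxysteroid dehydrogenases, liver minus kidney was -1.41 for Akr1c12, -1.34 for Akr1c13, -1.23 for Hsd17b4, -1.12 for Hsd17b3 and -0.83 for Hsd17b7, and liver minus brain was -2.12 for Hsd3b7 and -0.54 for Hsdl2. Of steroid synthesis genes, liver minus kidney was -1.10 for Star, -0.89 for Cyp17a1, -0.74 for Stard4 and -0.60 for Tspo, and liver minus brain 0.53 for Cyp21a1. Of corticosteroid genes, liver minus kidney was -1.06 for Tsc22d3, -0.96 for Scnn1a, -0.91 for Errfi1 and -0.78 for Fkbp5, and liver minus brain -0.74 for Per1.

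Of sex-dependent genes, liver minus kidney was -2.69 for Selenbp2, -2.03 for Cyp3a44, -1.73 for Cyp3a16, -1.11 for Cyp4a12a, -0.61 for Elovl3 and 0.84 for Sult3a1, and liver minus brain 1.59 for Mup3, 0.70 for Cyp2a4 and -0.59 for Abcd2. Of marker genes, liver minus kidney was 2.25 for Serpina1a, 0.75 for Cd14, -0.85 for Aqp2, -0.71 for Slc22a8 and -0.53 for Aqp3. Liver minus brain was -1.57 for Tdo2, 1.09 for Gatm and 0.74 for Aqp1, and kidney minus brain 1.11 for Adgre1. Next to the Hsd3b genes, liver minus kidney was -2.0 for Hao2 and -0.57 for Gdap2.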

How the results depend on the processing

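Across the alternatives Hsd3b1 in liver ranged from -2.68 to -2.53. Of 309 recomputed member means 304 stayed within 1 SD and 5 moved further. Leaving out 1 of 3 arrays cannot move a mean by 1 SD, and most other alternatives leave it unchanged. Only the subtraction of line and column medians could move every member, and there 5 of 21 means moved further. They were Hsd3b3 and Hsd17b2 in kidney (0.11 and -0.34), Hsd11b1 in liver (0.04) and Hsd17b11 in liver and kidney (0.73 and 0.47). The pairs of member and tissue with all arrays on 1 side of 0 numbered 12 of 21, and 12 to 15 with 1 array left out. Leaving out an array cannot lower that count. Of all genes, 32.5% lay below 0 and 27.8% above 0 on all 3 arrays in liver, 32.0% and 35.3% in kidney, and 22.4% below 0 in brain. The count is therefore not a trait of the members. Across all alternatives 2 to 4 members were called in liver, 1 to 4 in kidney and 0 to 1 in brain. With all arrays the shares of all genes called lower and higher were 14.1% and 9.98% in liver, 13.9% and 13.4% in kidney, and 9.70% and 7.72% in brain. Calls over all rows shifted across the alternatives too, as given below, so these ranges are not a trait of the members. Of 968 recomputed ratios of tested genes 862 kept sign and call, 105 lost the call, and 1 turned sign (Akr1c18 in kidney, 0.021 after that subtraction). With 1 array left out, 8 to 13 other family genes were called in liver (12 with all arrays), 2 to 8 in kidney (6) and 1 to 3 in brain (3). The calls over 3 tissues then ranged from 7 to 11 for steroid synthesis, 4 to 7 for corticosteroid genes, 10 to 13 for male-biased and 6 to 8 for female-biased genes, 3 to 5 for adrenal, 2 to 4 for proximal tubule, 5 to 9 for distal nephron, 6 to 9 for hepatocyte and 5 to 7 for macrophage markers, and 4 to 6 for the Hsd3b neighbours. Over all rows, 3117 to 6437 were called in liver (5401 with all arrays), 3670 to 7416 in kidney (6295) and 2227 to 4692 in brain (4399). For differences, 2172 to 5315 were called for liver minus kidney (4078), 1047 to 2167 for liver minus brain (1992) and 161 to 2931 for kidney minus brain (1133), the last 2931 without brain replicate 3. With genes of a single symbol only, 4138 were called in kidney and 2590 in brain. On the brain arrays alone 1477 rows and 1 other family gene were called. After line and column medians were subtracted 735 rows differed between kidney and brain, 3 other family genes were called in kidney and 5 female-biased calls were left of 8. Without probes at multiples of 8, 2 adrenal marker calls were left of 4. With the replicate block 535 rows differed between kidney and brain. Deviations of same-numbered arrays of different tissues correlated at r from -0.09 to 0.06 over 9 pairs, and those of differently numbered arrays at -0.10 to 0.12. A correlation over all rows cannot show whether same-numbered arrays shared a labelling or hybridisation that touched some spots. The cause of the shifts between alternatives was not tested.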
